A study of Homo sapiens with 26 samples.

Results

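The nuclear genes for respiratory complexes III, IV and V were followed across ribosome profiling libraries of 3 human cell lines. They were chosen by name, as every gene whose symbol begins with UQCR or ATP5, or with COX and a digit from 4 to 8 followed by A, B, C or I, plus CYC1. The rule found 46 of the 19478 genes counted, with 10 for complex III, 17 for complex IV and 19 for complex V. Of these, UQCRHL, ATP5L2 and ATP5EP2 are copies of subunit genes, ATP5J2-PTCD1 is a readthrough transcript, and ATP5S, known as factor B, is not a core subunit. The symbols are older ones and are kept as deposited. The genes of the c ring, here ATP5G1, ATP5G2 and ATP5G3, are now called ATP5MC1, ATP5MC2 and ATP5MC3.

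The study compared ways of removing rRNA from footprint libraries, in which nuclease digestion leaves the mRNA fragments that ribosomes cover. HEK293T cells, an embryonic kidney line carrying the SV40 large T antigen, gave 2 libraries each with no depletion, with Ribo-Zero Gold, with RiboCop and with NEBNext, all from fragments of 15 to 35 nt. HEK293FT cells, a fast-growing relative of HEK293T, gave 1 library with custom oligos and 1 without depletion, also from 15 to 35 nt. K562 cells, a chronic myeloid leukaemia line with erythroid features, were profiled in 2 experiments that are tabulated apart. One, here the K562 size experiment, held 1 NEBNext and 1 undepleted library at 20 to 34 nt and 1 of each at 20 to 60 nt. The other, the K562 kit experiment at 20 to 34 nt, held 2 libraries each with no depletion, FastSelect and riboPools, 2 more with riboPools eluted cold, and 1 library each with Ribo-Zero Plus alone, with added oligos, with formaldehyde and with both. Both size-experiment libraries titled undepleted also carry a label that names NEBNext, and their titles were followed. The labels name no genotype change and no drug. HEK cells were grown in DMEM and K562 cells in RPMI. Nothing in the labels says that replicates came from separate cultures, so the p-values measure only the spread between these libraries.

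The 26 libraries held 46858 to 5795774 counts in coding sequences. The fetal globin genes HBG1 and HBG2 were at 0 in all HEK293T and HEK293FT libraries and at 968.8 or more counts per 1000000 (CPM) in every K562 library. A list of 11 K562 markers summed to 3996 CPM or more in every K562 library and to 7.307 CPM or less in every HEK library. The HEK293 markers were mixed. CDH2, NEFL and NEFM were at 85.95 CPM or more in every HEK library and at 0.9691 CPM or less in K562. KRT8 and KRT18 went the other way, at 282.7 CPM or more in K562 and 73.54 CPM or less in HEK, and EYA1, LHX1, PAX2 and PAX8 were at 8.332 CPM or less throughout. Cell line, medium, experiment and fragment size changed together, so their parts in a difference between lines cannot be told apart.

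Complex III passes electrons from ubiquinol to cytochrome c, and complex IV passes them on to oxygen. Both pump protons, and complex V, the ATP synthase, uses the proton gradient to make ATP. Each complex joins nuclear subunits, made on cytosolic ribosomes, with a few subunits made inside mitochondria. Several complex IV subunits have a common form and a second form restricted to muscle, lung or testis, and the ring of identical c subunits in complex V is encoded by 3 nuclear genes.

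Some of these genes are so alike that a footprint can match both, which bears on the counts below, so the sequences are shown first. They were taken from GENCODE release 29 on GRCh38, 5′ to 3′, with capitals at the bases where the aligned sequences differ. UQCRH, the hinge protein of complex III, lies on chromosome 1 (transcript at 46303631 to 46316776, plus strand, 4 exons), and its single-exon copy UQCRHL lies on the same chromosome (15807169 to 15809348, minus strand). Their coding sequences of 276 bases differ at 4 positions.
UQCRH: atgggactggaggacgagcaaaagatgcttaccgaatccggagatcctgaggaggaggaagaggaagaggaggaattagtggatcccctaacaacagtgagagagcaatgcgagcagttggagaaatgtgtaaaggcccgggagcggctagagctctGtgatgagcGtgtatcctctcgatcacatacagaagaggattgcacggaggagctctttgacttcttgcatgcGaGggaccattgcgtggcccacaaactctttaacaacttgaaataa
UQCRHL: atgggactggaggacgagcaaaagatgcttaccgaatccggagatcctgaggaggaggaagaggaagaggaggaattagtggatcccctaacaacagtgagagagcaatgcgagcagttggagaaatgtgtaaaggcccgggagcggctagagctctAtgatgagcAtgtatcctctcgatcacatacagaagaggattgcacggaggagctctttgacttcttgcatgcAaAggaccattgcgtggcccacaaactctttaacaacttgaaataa

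Of the 249 windows of 28 bases in UQCRH, about the length of a footprint, 182 (73.09%) also occur in UQCRHL. A footprint in those windows cannot be assigned to either gene by its sequence, and how such reads were counted is not given in the sources used here. ATP5E, the epsilon subunit of the ATP synthase F1 head (chromosome 20, 59025467 to 59032382, minus strand, 3 exons), has a processed pseudogene, ATP5EP2 (chromosome 13, 27945260 to 27945415, plus strand). The sequences of 156 bases differ at 6 positions and share 41.09% of windows.
ATP5E: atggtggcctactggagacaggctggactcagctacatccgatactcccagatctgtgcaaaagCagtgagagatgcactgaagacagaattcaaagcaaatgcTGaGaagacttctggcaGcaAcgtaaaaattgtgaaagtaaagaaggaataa
ATP5EP2: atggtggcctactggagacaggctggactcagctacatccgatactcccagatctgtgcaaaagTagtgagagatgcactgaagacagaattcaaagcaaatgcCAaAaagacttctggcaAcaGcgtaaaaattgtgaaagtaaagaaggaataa

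ATP5L shared 22.11% of its windows with ATP5L2, and ATP5J2 shared 39.58% with ATP5J2-PTCD1. The latter were only 4.27% of the windows of ATP5J2-PTCD1, so its values below need not reflect the ATP5J2 subunit. The 3 c genes are the opposite case. Each encodes a different mitochondrial targeting peptide ahead of the same mature protein, and the last 234 bases of their coding sequences, with the stop codon, encode the same residues in all 3 while differing at 58 positions. They are printed because the clearest difference between the cell lines was among these genes. ATP5G1 lies on chromosome 17 (48892817 to 48895869, plus strand), ATP5G2 on chromosome 12 (53665171 to 53677408, minus strand) and ATP5G3 on chromosome 2 (175176258 to 175184607, minus strand).
ATP5G1: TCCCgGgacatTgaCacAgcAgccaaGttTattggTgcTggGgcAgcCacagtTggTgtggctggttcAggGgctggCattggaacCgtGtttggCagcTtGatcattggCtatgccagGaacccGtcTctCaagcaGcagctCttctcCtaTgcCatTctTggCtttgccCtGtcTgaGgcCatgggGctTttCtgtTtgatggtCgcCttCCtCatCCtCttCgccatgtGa
ATP5G2: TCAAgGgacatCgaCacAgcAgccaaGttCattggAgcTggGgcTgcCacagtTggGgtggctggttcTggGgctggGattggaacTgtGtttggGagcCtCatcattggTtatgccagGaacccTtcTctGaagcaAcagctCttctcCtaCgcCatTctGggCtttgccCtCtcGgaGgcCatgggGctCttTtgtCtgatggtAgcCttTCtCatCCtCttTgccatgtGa
ATP5G3: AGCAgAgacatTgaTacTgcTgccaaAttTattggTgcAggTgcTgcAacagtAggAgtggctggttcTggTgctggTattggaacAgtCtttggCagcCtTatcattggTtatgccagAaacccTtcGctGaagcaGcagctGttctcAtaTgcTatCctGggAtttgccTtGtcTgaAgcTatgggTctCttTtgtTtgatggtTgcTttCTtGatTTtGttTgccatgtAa

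No window of 28 bases was shared between any pair of c genes, so their footprints can be told apart. The same held for each pair of common and tissue-restricted complex IV forms compared, from COX4I1 and COX4I2 to COX8A and COX8C.

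In undepleted libraries the subunits of a complex were not read at equal density. Levels between genes are given as footprint density, the CPM divided by the length of the coding sequence in kb. COX7C, a small complex IV subunit, had the highest density in HEK293T, at 2035 ± 190 (SD, n = 2), and in HEK293FT, at 2492 in its 1 library. ATP5G3 had the highest in the K562 kit experiment, at 3424 ± 61.1 (SD, n = 2), followed by COX7C at 1911 ± 23.8 and COX6B1 at 1791 ± 56.0. In HEK293T the next places went to ATP5G3 (1378 ± 166) and the catalytic beta subunit ATP5B (1180 ± 35.0), and UQCR10 at 1177 ± 177 was not separated from ATP5B by its spread. In HEK293FT they went to ATP5G2 (1441) and ATP5G3 (1188).

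The order was made among genes with over 3 counts in every undepleted library of a line. This left out ATP5L2 in HEK293T, with 8 and 3 counts (220 and 64.5 CPM per kb), COX4I2, with 5 and 1 counts in K562 (8.53 and 1.88 CPM per kb) and 2 in HEK293FT (4.30 CPM per kb), and the genes at 0. The lowest of those ordered in HEK293T were COX7A2L (151 ± 26.1), a paralogue of subunit 7A known for its role in supercomplex assembly, then ATP5S (65.1 ± 35.2) and ATP5J2-PTCD1 (40.0 ± 11.5). In HEK293FT they were ATP5L2 (91.6), ATP5J2-PTCD1 (35.5) and ATP5S (27.4). In the K562 kit experiment they were ATP5S (33.4 ± 0.761), ATP5J2-PTCD1 (30.7 ± 4.69) and COX7B2 (24.3 ± 1.01), where ATP5S lay within the spread of ATP5J2-PTCD1. The core proteins of complex III, UQCRC1 and UQCRC2, were also low, with UQCRC1 at 194 ± 2.24 in K562.

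**Figure D1:**
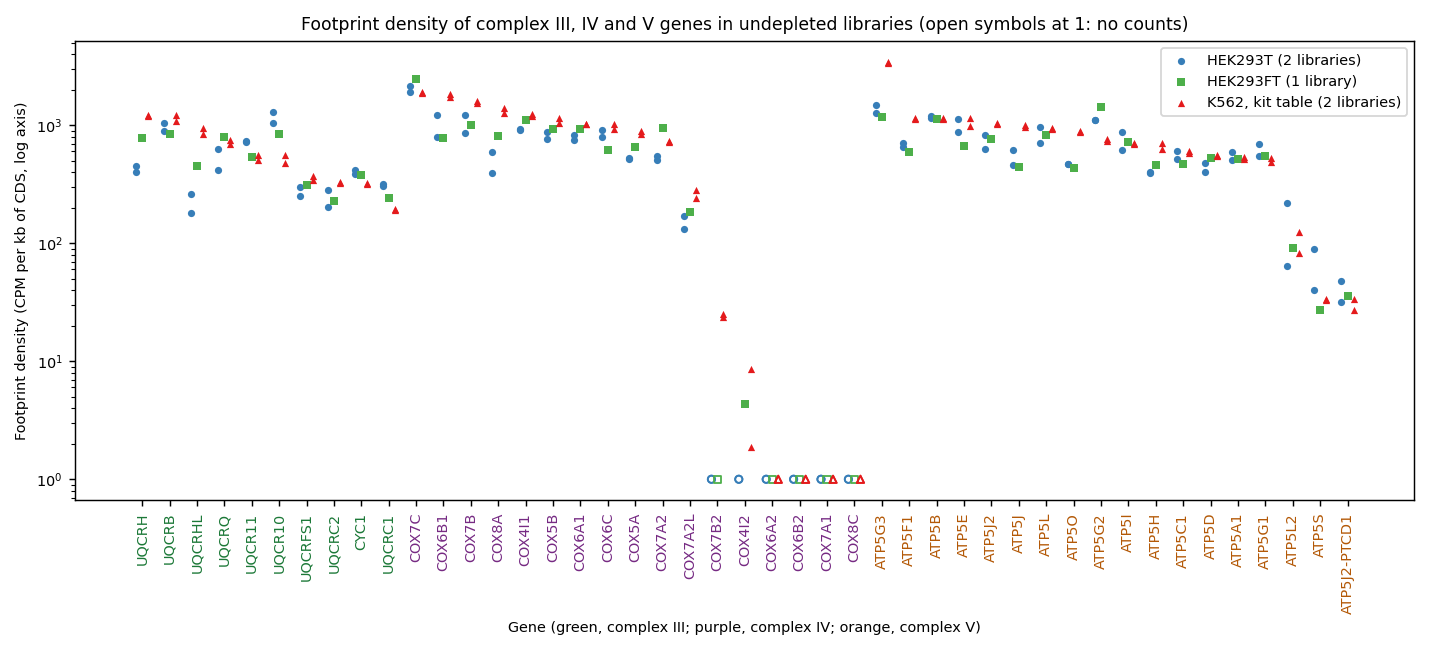
Footprint density (CPM per kb of coding sequence, log axis) of each gene in the undepleted libraries of HEK293T (2), HEK293FT (1) and the K562 kit experiment (2), 1 symbol per library, ordered within each complex by the K562 mean; ATP5EP2, which has no annotated coding sequence, is not drawn. ATP5G3 in K562 stands at 3424 on average, above the 1378 of HEK293T and the 1188 of HEK293FT, and open symbols on the line at 1 mark genes with no counts.

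Within complex V the densities can be set against the gamma subunit ATP5C1, which is present once per enzyme and turns inside the F1 head. The alpha subunit ATP5A1 and the beta subunit ATP5B are each present in several copies per enzyme, and the c ring in more. In undepleted HEK293T libraries the density over that of ATP5C1 was 0.998 ± 0.217 for ATP5A1, 2.11 ± 0.172 for ATP5B and 5.54 ± 0.134 for the 3 c genes together (SD, n = 2). In the undepleted K562 kit libraries the ratios were 0.887 ± 0.00408, 1.91 ± 0.0973 and 7.89 ± 0.174. In the undepleted HEK293FT library they were 1.11, 2.45 and 6.82. The order of the 3 ratios was the same in each line, with alpha lowest and the c genes highest. The alpha ratios of the 2 HEK293T libraries, 0.844 and 1.15, enclosed those of K562. The beta ratios lay close, at 1.99 and 2.23 against 1.98 and 1.84, and the c ratios lay apart, at 5.45 and 5.64 against 8.01 and 7.76.

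The tissue-restricted forms of complex IV were nearly absent from all 3 lines. COX6A2 and COX7A1, the heart and muscle forms of subunits 6A and 7A, and COX8C, the testis form of subunit 8, had 0 counts in all 26 libraries. Over the 12 K562 kit libraries, 0 of 26682990 counts allows up to 0.112 CPM, and over the 2 HEK293FT libraries 0 of 6648535 allows up to 0.451 CPM. These limits, set at 3 counts, and the intervals below cover counting error only, not that of PCR. COX6B2, the testis form of subunit 6B, had 5 counts over the K562 kit libraries, 2 over the HEK293FT libraries and 0 elsewhere. COX4I2, the lung form of subunit 4, had 35 and 6 counts, or 1.31 and 0.902 CPM, and made up at most 0.678% of the summed subunit 4 density in any library. Of 4 muscle and heart markers, the skeletal actin gene ACTA1 was at 75.73 to 224 CPM, CKM at 0 to 17.13 CPM, MYH7 at 4.973 CPM or less and TNNT2 at 0.9691 CPM or less. COX7A2 shared its family with the paralogue COX7A2L, and held 77.9% ± 2.0 of their summed density in undepleted HEK293T (SD, n = 2), 83.8% in HEK293FT and 73.6% ± 2.4 in K562 kit libraries (SD, n = 2).

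COX7B2, the testis form of subunit 7B, was the exception in K562. It had 117 counts over the 12 K562 kit libraries, or 4.38 CPM with an exact 95% binomial interval of 3.63 to 5.26 CPM on the pooled counts, and was counted in 11 of them. The 2 undepleted libraries of that experiment had 7 and 6 counts, or 6.16 and 5.81 CPM, and the 2 deepest, with cold-eluted riboPools, had 27 and 26. The K562 size experiment added 4 counts in 3 of its 4 libraries. COX7B2 was at 0 in all 8 HEK293T and both HEK293FT libraries, where 0 of 1827473 and 0 of 6648535 counts allow 1.64 and 0.451 CPM. Both limits lie below the K562 interval. In undepleted K562 kit libraries COX7B2 still made up only 1.52% ± 0.0256 (SD, n = 2) of the summed subunit 7B density, the rest being COX7B.

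The 3 c genes divided their shared output differently in the lines. ATP5G3 held 44.3% ± 1.49 of the summed c-gene density in undepleted HEK293T libraries, ATP5G2 held 35.8% ± 2.81 and ATP5G1 held 20.0% ± 1.32 (SD, n = 2). In the undepleted K562 kit libraries ATP5G3 held 73.0% ± 0.484, ATP5G2 held 16.1% ± 0.288 and ATP5G1 held 10.9% ± 0.772. In undepleted HEK293FT the order was different again, with 45.4% for ATP5G2, 37.4% for ATP5G3 and 17.2% for ATP5G1. Over all kits, the ATP5G3 share ran from 36.3% to 51.4% in the 8 HEK293T libraries and from 37.4% to 39.2% in the 2 HEK293FT libraries. It ran from 56.8% to 79.5% in the 12 K562 kit libraries and from 66.9% to 85.2% in the 4 K562 size libraries. The HEK and K562 ranges did not overlap.

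**Figure D2:**
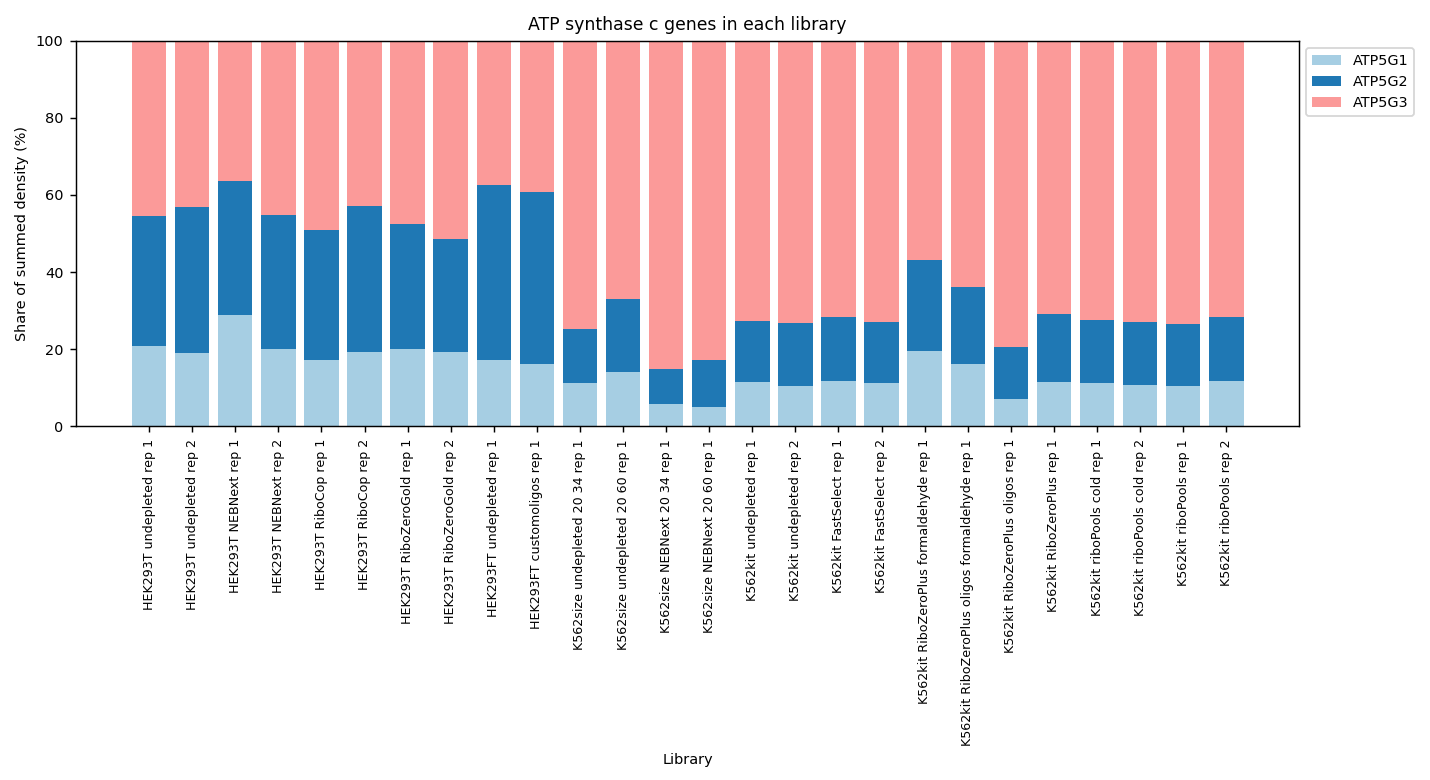
Share of the summed footprint density (%) of ATP5G1, ATP5G2 and ATP5G3 in each of the 26 libraries, stacked to 100. ATP5G3 takes 36.3% to 51.4% in HEK293T and 56.8% or more in every K562 library.

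The CPM of ATP5G3 gave the same picture. They were 642 and 541 in the undepleted HEK293T libraries, 510 in HEK293FT, 1451 and 1488 in the K562 kit experiment, and 1388 and 1366 in the K562 size experiment. Every K562 library was above every HEK library. ATP5G3 was 2.75-fold higher in undepleted K562 kit than HEK293T libraries, a log2 fold change of 1.46 ± 0.11 (SE; adjusted p = 1.35e-39, edgeR quasi-likelihood test with Benjamini-Hochberg adjustment). ATP5G2 was lower in K562 than in HEK293T by the same test (-0.42 ± 0.15, adjusted p = 0.0149) and lower than in HEK293FT (-0.92 ± 0.09, adjusted p = 7.85e-24). The call against HEK293T was lost without either HEK293T library, and without K562 replicate 1. ATP5G1 gave -0.12 ± 0.20 against HEK293T (adjusted p = 0.635).

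The undepleted libraries of the K562 kit experiment and HEK293T were then compared over all the genes of the rule. More of them were higher in K562 than lower. Of the 40 tested, 22 were higher and 3 lower at an adjusted p under 0.05, which is the threshold for every call here. Over the 5551 genes tested, 44.5% were called, 22.8% higher and 21.7% lower. The median log2 fold change was 0.50 over the 40 genes and 0.01 over all genes. Scaling by library totals moved the median of all genes to -0.12 and left 15 higher and 3 lower, and without HEK293T replicate 2 the counts were 14 and 1. The 6 genes under the low-count filter were COX4I2, COX6A2, COX6B2, COX7A1, COX7B2 and COX8C. Where single genes are said below not to overlap, they were called from the same libraries, which makes that likely. The share of all genes without overlap is not given here.

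In complex III, 6 of 10 genes were higher and 2 lower. UQCRH had 125 and 111 CPM in HEK293T against 329 and 335 CPM in K562, and its copy UQCRHL had 49.99 and 71.7 against 262 and 235. Neither pair of libraries overlapped the other. UQCRH rose by 1.64 ± 0.23 on the log2 scale (adjusted p = 7.28e-12) and UQCRHL by 2.13 ± 0.29 (adjusted p = 2.22e-12), and the shared windows mean that these are not independent measurements. The Rieske iron-sulfur subunit UQCRFS1, which takes the first electron from ubiquinol, rose by 0.49 ± 0.19 (adjusted p = 0.0259), and cytochrome c1, CYC1, gave -0.19 (adjusted p = 0.331), which did not pass.

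UQCR10, a small subunit of the membrane part, moved the other way. It had 250 and 202 CPM in HEK293T against 108 and 92.1 CPM in K562, and 163 in HEK293FT. The K562 libraries were the lowest, with no overlap. The log2 fold change was -1.01 ± 0.23 against HEK293T (adjusted p = 6.65e-05) and -0.69 ± 0.17 against HEK293FT (adjusted p = 9.66e-05). The core protein UQCRC1 was also lower, by -0.55 ± 0.16 (adjusted p = 0.00175), while its partner UQCRC2 was higher, by 0.55 ± 0.16 (adjusted p = 0.00183). The UQCRC1 call was lost without either HEK293T library.

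In complex IV, 9 of the 11 genes tested were higher and none lower. COX8A, the common form of subunit 8, had 83.3 and 124 CPM in HEK293T against 267 and 293 CPM in K562. It rose by 1.53 ± 0.24 (adjusted p = 2.69e-09). COX6B1, which sits on the intermembrane side near cytochrome c, had 317 and 209 CPM against 457 and 478 CPM and rose by 1.001 ± 0.17 (adjusted p = 2.67e-08). Neither gene overlapped between the lines. The 2 that did not pass were COX7C, at 0.06, and COX6C, at 0.32.

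In complex V, 7 of 19 genes were higher and 1 lower, a share near the 44.5% of all genes. Besides ATP5G3, those that rose included 4 genes of the peripheral stalk, which holds the F1 head still while the ring turns. ATP5O, the stalk's OSCP subunit, had 299.95 and 299.75 CPM in HEK293T against 558 and 572 CPM in K562 and rose by 1.05 ± 0.16 (adjusted p = 1.88e-10). ATP5J, or F6, rose by 0.98 ± 0.20 (adjusted p = 8.53e-06), ATP5H, subunit d, by 0.88 ± 0.20 (adjusted p = 3.96e-05) and ATP5F1, subunit b, by 0.88 ± 0.12 (adjusted p = 7.46e-12). Of the F1 head, ATP5A1 gave 0.05 and ATP5B 0.08, neither past the threshold, with ATP5B at 1916 and 1838 CPM in HEK293T and 1827 and 1782 in K562. The delta subunit ATP5D rose by 0.50 ± 0.19 (adjusted p = 0.027).

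Summed over all 46 genes, footprints made up 12128 ± 324 CPM in undepleted HEK293T (SD, n = 2), 12198 in undepleted HEK293FT and 15181 ± 80.5 in undepleted K562 kit libraries (SD, n = 2). Complex IV rose from 2733 ± 58.9 in HEK293T to 3861 ± 31.3 in K562, complex V from 7007 ± 307 to 8645 ± 91.6 and complex III from 2388 ± 42.1 to 2675 ± 42.4. No sum overlapped between these lines, and the sums were not tested. The complex V sum includes the large rise of ATP5G3, so it need not reflect the complex as a whole. Of the 19 complex V genes 7 were called higher, with a median log2 fold change of 0.26 over the 19.

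Other genes of the pathway moved in both directions. The mitochondrially encoded partners of these complexes, MT-CYB, MT-CO1, MT-CO2, MT-CO3, MT-ATP6 and MT-ATP8, are read by mitochondrial ribosomes, and all 6 were higher in K562 than in HEK293T, with a median of 2.39. They were also higher in HEK293FT than in HEK293T, with a median of 1.48, where 4 of 40 nuclear genes of these complexes were. Of 7 rows for complex II and carriers, 4 were higher and 1 lower, with a median of 0.75; those higher included cytochrome c, CYCS, and SDHB, and SDHC was lower. Of 39 complex I genes tested, 8 were higher and 8 lower in K562, with a median of 0.07. Of 15 complex IV assembly rows, 2 were higher and 5 lower, with a median of -0.60, and they included the translation regulator LRPPRC (higher) and the copper chaperone COX17 (lower). Complex III assembly had 1 of 3 lower (BCS1L) and complex V assembly and regulation 1 of 5 lower (ATPAF1).

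The K562 to HEK293T difference was also measured with NEBNext, in libraries that entered none of the tests above. The K562 pair, 1 library of each fragment size, was fitted as 1 group with no term for size. Of the 37 genes tested, 13 were higher and 2 lower, against 43.5% of 4236 genes called, 21.9% higher and 21.6% lower, and the median was 0.31 (-0.01 over all genes). Of the 25 genes called in the undepleted libraries, 21 had the same sign here. The 11 genes called in both comparisons, all with the same sign, were 44% of the first list and 73.3% of the second. This agreement was not counted over all genes, so it is not shown to be particular to these. ATP5G3 was again first, at 2.38 ± 0.17 (adjusted p = 1.22e-07), with 443 and 572 CPM in HEK293T against 2509 and 2358 CPM in K562. UQCRH (1.43 ± 0.22, adjusted p = 0.000118), UQCRHL (1.27 ± 0.24, adjusted p = 0.000701) and ATP5D (1.28 ± 0.21, adjusted p = 0.00024) also rose, as did ATP5J2-PTCD1 (1.30 ± 0.48, adjusted p = 0.0383).

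The genes that were lower with NEBNext were UQCR10 (-1.42 ± 0.37, adjusted p = 0.00621) and ATP5G1 (-0.73 ± 0.24, adjusted p = 0.0261). UQCR10 had 210 and 149 CPM in HEK293T and 43.1 and 90.1 CPM in K562. The 4 genes whose sign changed were ATP5J2, COX5A, COX6A1 and UQCRC1, none of them called with NEBNext. Without the K562 NEBNext library of 20 to 34 nt, no gene of the rule was called, and ATP5G3 stood at 2.35 with an adjusted p of 0.0732.

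**Figure D3:**
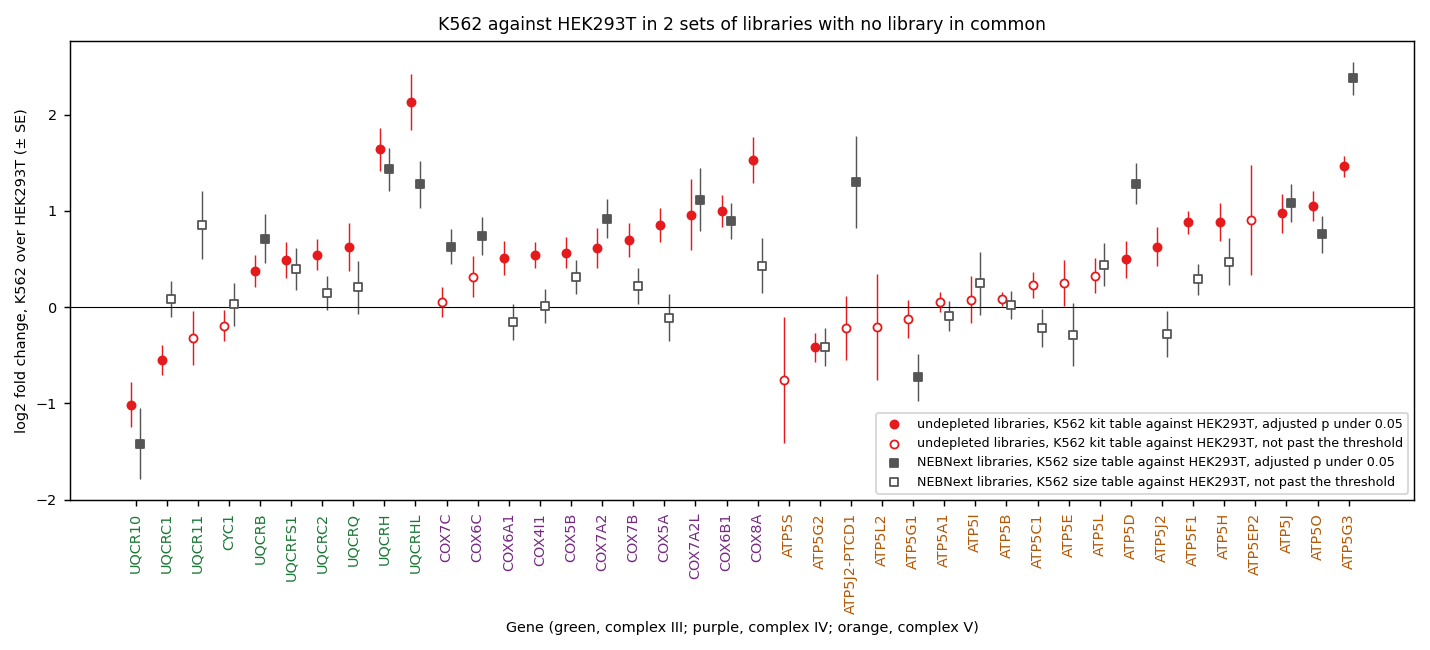
Log2 fold change of K562 over HEK293T (± SE) for each gene tested, in undepleted libraries (K562 kit against HEK293T, 2 each) and in NEBNext libraries (K562 size against HEK293T, 2 each). The K562 size pair holds 1 library of each fragment size. Filled symbols passed an adjusted p of 0.05. ATP5G3 lies at 1.46 and 2.38, UQCR10 at -1.01 and -1.42, and most other filled symbols lie above 0.

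The undepleted K562 size libraries differed from HEK293T in 16 genes that were higher and 2 lower of 40, against 29.3% of all genes called, 16.5% higher and 12.8% lower. These 2 comparisons share the undepleted HEK293T libraries. The K562 size libraries of both fragment sizes formed 1 group in this fit. UQCRHL (2.19), UQCRH (2.01), ATP5G3 (1.36) and COX8A (1.30) had the largest rises, and UQCR10 (-1.14) and ATP5G2 (-0.62) were lower. Without the size library of 20 to 34 nt the counts were 7 and 0, and without HEK293T replicate 2 they were 10 and 1. Set against each other, the undepleted libraries of the 2 K562 experiments had 0 genes of the rule called by edgeR (3 at an unadjusted p under 0.05) and 0 by DESeq2, where 0.288% of all genes were called. The unadjusted count was not set against that of all genes. Of the mitochondrially encoded partners, 3 of 6, MT-CO1, MT-CO2 and MT-CO3, were higher in the size experiment than in the kit experiment (median 0.33).

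Between the HEK lines fewer genes differed. HEK293FT was higher than HEK293T in 4 of 40 genes and lower in none, where 7.58% of all genes were called, 4.77% higher and 2.81% lower. COX7A2 had 330 CPM in HEK293FT against 192 and 176 CPM and rose by 0.97 ± 0.21 (adjusted p = 0.000212). UQCRH (1.02 ± 0.26, adjusted p = 0.00318), UQCRHL (1.13 ± 0.35, adjusted p = 0.0235) and ATP5G2 (0.50 ± 0.14, adjusted p = 0.00962) also rose. The group had 1 library, so its spread was taken from the other groups. No gene was called without HEK293T replicate 2 (edgeR), against 2 without replicate 1, 2 by DESeq2 and 2 by library totals.

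Against HEK293FT, the K562 kit libraries were higher in 20 genes and lower in 6, where 60.4% of all genes were called, 30.2% higher and 30.2% lower. ATP5G3 (1.54 ± 0.07), ATP5EP2 (1.22 ± 0.39), COX6B1 (1.19 ± 0.11) and ATP5J (1.16 ± 0.13) had the largest rises. ATP5G2 (-0.92), UQCR10 (-0.69), COX7C (-0.37 ± 0.09) and COX7A2 (-0.36 ± 0.11) had the largest falls. COX7C had 479 CPM in HEK293FT and 364 and 370 CPM in K562. DESeq2 called 11 higher and 1 lower. This comparison shares its K562 libraries with that against HEK293T, and the values are given side by side for that reason.

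The depletion kits were compared with undepleted libraries of the same experiment. NEBNext removes rRNA by hybridising DNA probes and digesting the hybrids with RNase H. In HEK293T it changed 3 of 37 genes, 2 higher and 1 lower, where 3.24% of 4410 genes were called, 1.5% higher and 1.75% lower. COX7A2, the common form of subunit 7A (chromosome 6, 75237675 to 75250323, minus strand), had 192 and 176 CPM without depletion and 375 and 438 CPM with NEBNext. It rose by 1.19 ± 0.24 (adjusted p = 8.39e-05). COX7B rose by 0.87 ± 0.21 (adjusted p = 0.00291), from 208 and 300 CPM to 413 and 507 CPM. UQCRB, a small complex III subunit near the ubiquinone site, had 300 and 352 CPM against 188 and 169 CPM and fell by 0.88 on the log2 scale (SE 0.25, adjusted p = 0.0192).

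The NEBNext and undepleted values of these genes did not overlap, which is likely for genes called from these same libraries. Without NEBNext replicate 2 the sole call of the 3 was COX7A2. The UQCRB call was also lost by DESeq2 (adjusted p = 0.0651), with no filter (adjusted p = 0.0583) and without undepleted replicate 2 (adjusted p = 0.367), and the COX7B call without undepleted replicate 1 (adjusted p = 0.206). ATP5EP2, ATP5L2, ATP5S, COX4I2, COX6A2, COX6B2, COX7A1, COX7B2 and COX8C fell under the low-count filter in HEK293T.

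NEBNext in K562 changed 5 of 38 genes, 4 higher and 1 lower, where 2.16% of 4625 genes were called, 1.62% higher and 0.541% lower. COX7A2 was first here too, with 300 and 341 CPM in the undepleted libraries and 807 and 576 CPM with NEBNext, a log2 fold change of 1.34 ± 0.22 (adjusted p = 1.65e-07). COX6C (1.13 ± 0.26, adjusted p = 0.00178), ATP5G3 (0.92 ± 0.13, adjusted p = 4.79e-09) and COX7C (0.82 ± 0.21, adjusted p = 0.00678) also rose. COX5A, a subunit on the matrix side, fell by 0.98 (SE 0.24, adjusted p = 0.00377), from 405 and 534 CPM to 186 and 270 CPM. The fit had 1 library per depletion and size and left 1 residual degree of freedom. Its p-values therefore lean on a spread estimated across genes. Each of these 5 genes moved the same way at both fragment sizes. They were called in a fit of these same libraries, which makes that likely, so it is not separate support. COX7A2 changed by 1.504 at 20 to 34 nt and 0.86 at 20 to 60 nt, ATP5G3 by 0.93 and 0.90, and COX5A by -1.05 and -0.87. DESeq2 called 2 of the 5, both higher. It gave an adjusted p to only 17 genes of the rule and 553 genes in all, of which 26 were called. The smallest library of this set held 46858 counts.

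UQCRB, which fell with NEBNext in HEK293T, changed by -1.05 at 20 to 34 nt and 0.36 at 20 to 60 nt in K562. Of the mitochondrially encoded partners, 5 of 6 rose with NEBNext in K562 (median 0.70) and 2 of 6, MT-ATP8 and MT-CO3, in HEK293T (median 0.56). Rises were not particular to NEBNext. In the K562 kit experiment 4 of 6 rose with riboPools (median 0.15) and 6 of 6 with cold-eluted riboPools (median 0.23). The shares of all genes called there were 0.0794% and 0.258%. Their median was 0.37 with Ribo-Zero Plus alone and -0.04 with FastSelect. In HEK293T it was -0.64 with Ribo-Zero Gold and -0.01 with RiboCop. Of the complex I list, 1 of 38 rose in K562, NDUFA4, which is now counted with complex IV, and 1 of 39, NDUFA3, fell in HEK293T.

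Ribo-Zero Gold and RiboCop, which both pull rRNA out with bound probes, gave no call among the 37 genes in HEK293T. For Ribo-Zero Gold 0.068% of 4410 genes were called, and edgeR gave 2 genes of the rule at an unadjusted p under 0.05, against 251 of all 4410. For RiboCop 0% were called, with 3 genes of the rule at an unadjusted p under 0.05, against 195 of all 4410. DESeq2 also called 0 for each. The log2 fold changes of the 37 genes ran from -0.66 to 0.45 with Ribo-Zero Gold and from -0.85 to 0.58 with RiboCop.

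FastSelect, which blocks reverse transcription of rRNA with oligos, and riboPools, which pull rRNA out with biotinylated probes, gave 0 calls among 42 genes in K562 by edgeR, with hot or cold elution, and 0 by DESeq2. All genes were called at 0.0198% for FastSelect, 0.0794% for riboPools and 0.258% for cold-eluted riboPools, of 10078 tested. Without adjustment 7, 8 and 11 of the 42 genes had a p under 0.05. These counts were not set against the share over all genes, so no effect is read from them. COX6B1 passed with cold elution under DESeq2's size factors. COX6A2, COX6B2, COX7A1 and COX8C fell under the filter. These are the deepest replicated libraries, with 2291924 to 5795774 counts.

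Ribo-Zero Plus, an RNase H method, had 1 library without additions. It differed from undepleted K562 in 10 of 42 genes, 7 higher and 3 lower, where 20.6% of 10078 genes were called, 8.95% higher and 11.7% lower. The spread of this 1 library was taken from the replicated groups, and with all 12 libraries in the fit 1 of 41 genes was called, against 246 of 10142 overall. ATP5J2-PTCD1 had 61.6 and 76.6 CPM without depletion and 127 CPM with the kit (0.90 ± 0.15, adjusted p = 2.79e-06), and UQCR10 went from 108 and 92.1 CPM to 146 CPM (0.55 ± 0.14, adjusted p = 0.00144). CYC1 (0.35 ± 0.08, adjusted p = 0.000603) and ATP5E (0.33 ± 0.11, adjusted p = 0.021) followed. The 3 that were lower were ATP5H (-0.27 ± 0.09, adjusted p = 0.0173), ATP5L (-0.25 ± 0.09, adjusted p = 0.0366) and ATP5J (-0.23 ± 0.09, adjusted p = 0.0453). Without undepleted replicate 1 the counts were 3 and 1, and DESeq2 called 2 higher and none lower.

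The Ribo-Zero Plus libraries with oligos, with formaldehyde and with both were shallow, at 184722, 116742 and 165153 counts. ATP5J2-PTCD1 stood at 168, 523 and 321 CPM in them, above both undepleted libraries, while UQCR10 was at 0 (a limit of 16.2 CPM), 77.1 and 60.5 CPM. Averaged over the 4 libraries, ATP5J2-PTCD1 rose by 1.61 ± 0.20 (adjusted p = 0.000125), and 8 genes were lower of 41 tested, among them ATP5I (-0.93 ± 0.23, adjusted p = 0.0193), ATP5H (-0.65 ± 0.14), COX6B1 (-0.64 ± 0.14) and ATP5L (-0.60 ± 0.14). Over all 10142 genes 14.6% were called, 1.35% higher and 13.2% lower, and the median was -0.48, so the directions depend on the scaling. By library totals 6 genes were higher and 4 lower, and a fit confined to the 6 libraries compared gave 0 (edgeR). There were 2 calls without undepleted replicate 1 and 1 without replicate 2, against 15 to 20 when any of the Ribo-Zero Plus libraries was left out.

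In HEK293FT, with 1 library a group and no test, the custom oligos left these genes close to their undepleted values. Of the 5225 genes that averaged 100 counts or more, 0% changed past 2-fold, and the same held for the 38 of complexes III, IV and V among them. The largest log2 ratios were 0.27 for UQCR11 and -0.27 for UQCRHL.

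**Figure D4:**
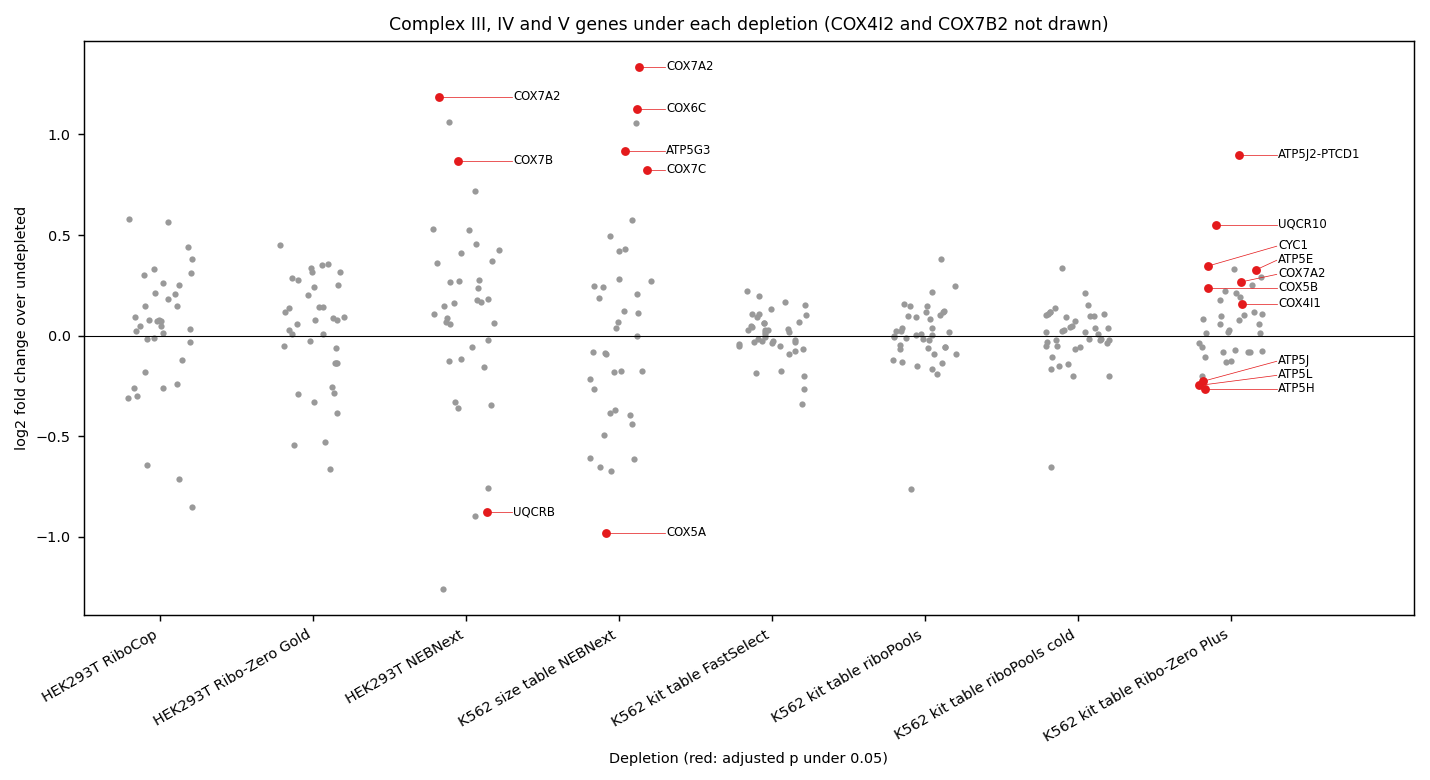
Log2 fold change over undepleted for each gene tested, by depletion, 1 point per gene spread sideways at random, with COX4I2 and COX7B2, which have few counts, not drawn. Red points passed an adjusted p of 0.05: 3 with NEBNext in HEK293T, 5 with NEBNext in K562, 10 with Ribo-Zero Plus alone and none with RiboCop, Ribo-Zero Gold, FastSelect or riboPools.

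The copies were counted at a fraction of their parent genes. UQCRHL had 0.549 counts per UQCRH count at the median of 8 HEK293T libraries and 0.646 at the median of 12 K562 kit libraries, with ranges of 0.4 to 0.929 and 0.25 to 0.86 that overlapped. ATP5EP2 per ATP5E count had medians of 0.188 and 0.274, and ATP5L2 per ATP5L count 0.109 and 0.14, again with overlapping ranges. ATP5J2-PTCD1 had 0.248 ± 0.034 counts per ATP5J2 count in undepleted K562 kit libraries (SD, n = 2). That ratio was 0.404 with Ribo-Zero Plus alone, 0.66 with oligos, 0.701 with formaldehyde and 1.02 with both, each above both undepleted libraries of that experiment. Undepleted libraries of the other experiments ran from 0.3235 to 0.65, a range that holds the ratio of Ribo-Zero Plus alone, and had 6 to 72 readthrough counts. Counts in the windows that the readthrough shares with ATP5J2 can belong to either. Its other windows are not found in ATP5J2, and whether footprints of PTCD1 were counted there was not tested.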

How the data were processed

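Ribosome footprints were counted in 26 libraries in 4 tables. The authors deposited raw counts per coding sequence, 1 transcript per gene, in whole numbers; the submitters' processing notes name CASAVA 1.8, STAR and GRCh38 (hg38). Deposited RPM values were not used. Tests on the counts used edgeR 4.0.16 in R 4.3.3 (TMM, filterByExpr with a minimum count of 10, quasi-likelihood test) over all genes of a fit, at a Benjamini-Hochberg adjusted p under 0.05; each standard error was derived from the fold change and its F statistic. The kit comparisons used 1 fit per experiment (9 libraries for K562 kits, all 12 for the Ribo-Zero Plus mean), and cell lines 1 fit of undepleted and 1 of NEBNext libraries. In the cell-line fits the K562 size libraries of both fragment sizes formed 1 group with no term for size. The spread within that group therefore includes any effect of size. DESeq2 1.42.0, other scalings and filters, single libraries left out and a replicate block were alternatives. The tests were tested on simulated data: of 200 genes changed 4-fold, 99.5% were recovered for NEBNext in HEK293T (4153 genes) and 94.5% for K562 against HEK293T (4603 genes). The changed genes were drawn only from those of higher mean counts. Smaller changes were not simulated, so these rates do not cover them or genes of low counts.

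Density divides CPM by the coding length in GENCODE 29, which matched 45 of 46 transcripts by identifier and version; ATP5EP2 was matched without its version. Genes were named by rule: all those called in a comparison, or the 4 largest rises and falls where over 8 were called, the isoform families, the 3 highest and lowest densities per line, and those under the filter. Copy ratios, ratios to ATP5C1 and further subunits, such as UQCRFS1, CYC1 and ATP5A1, were chosen outside that rule with values seen. The genes and lists were chosen with earlier results of these data known. Counts on rRNA were not analysed here. One HEK293 marker and the sum of its list are not reported here.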

Additional observations from a re-analysis of the deposited data

Results flagged for a closer look

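The response of ATP5G3 to NEBNext differed between the cell lines in a test of the difference itself, added after the data were seen. NEBNext raised ATP5G3 by 0.92 in K562, from 1388 and 1366 CPM to 2509 and 2358 CPM, and changed it by -0.16 in HEK293T, from 642 and 541 CPM to 443 and 572 CPM. The difference was 1.14 ± 0.23 on the log2 scale (adjusted p = 0.000523, edgeR quasi-likelihood test), 1 of 18 genes called of 5718 (0.315%) and the sole one of the 40 genes of complexes III, IV and V tested. All 4 K562 libraries came from fragments of up to 34 or 60 nt and those of HEK293T from up to 35 nt, and the part of that difference was not tested. The 2 effects come from separate fits and the difference from a joint one. Over the alternatives run it stood between 0.98 and 1.35, and it was lost without HEK293T undepleted replicate 1 (1.03, adjusted p = 0.183).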

How the results depend on the processing

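Over the alternatives run, 374 of the values for single named genes stayed on the same side of the threshold, 93 lost significance and 0 changed sign. These genes were named because they were called in the main fits, and most alternatives reuse the same libraries, so a change of sign was unlikely. Alternatives that gave a gene no adjusted p were left out of these counts. Depth limits the small libraries, where 3 counts stand for 7.12 to 25.0 CPM in HEK293T, 6.80 to 64.0 CPM in the K562 size experiment and 16.2 to 25.7 CPM in the Ribo-Zero Plus libraries with additions. With DESeq2's test the number of genes called was 2 for NEBNext in HEK293T, 2 for NEBNext in K562, 2 for Ribo-Zero Plus alone, 14 for K562 kit against HEK293T, 10 for K562 size against HEK293T, 2 for HEK293FT against HEK293T, 12 for K562 kit against HEK293FT and 7 for the NEBNext comparison of K562 with HEK293T; the cause was not tested. For NEBNext, DESeq2 gave an adjusted p to 31 genes of the rule (1457 in all) in HEK293T and to 17 (553 in all) in K562. These were fewer than the 37 and 38 that edgeR tested. DESeq2's size factors gave 1 call for cold-eluted riboPools, COX6B1, and library totals gave 2 for HEK293FT against HEK293T. With all 12 kit libraries in the fit, Ribo-Zero Plus alone had 1 call. The mean of the 4 Ribo-Zero Plus libraries had 0 calls when fitted on its own 6 libraries.

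Leaving out 1 library at a time gave 1 to 3 calls for NEBNext in HEK293T, 4 to 7 for Ribo-Zero Plus alone, 1 to 20 for the mean of the 4 Ribo-Zero Plus libraries, 15 to 23 for K562 kit against HEK293T, 7 to 18 for K562 size against HEK293T, 0 to 2 for HEK293FT against HEK293T, 0 to 12 for the NEBNext comparison of K562 with HEK293T, and 0 to 2 for the difference of NEBNext effects, which also had 2 where genes had to average 50 counts. No such test was possible for NEBNext in K562, where no residual degree of freedom was left. Without ATP5B, the summed CPM was 10251 in HEK293T, 13376 in K562 kit and 10388 in HEK293FT. ATP5B itself differed little between K562 and HEK293T, so leaving it out says little about the difference between these lines. Sums without ATP5G3 are not given here.

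Same-numbered replicates deviated together by correlations of 0.038 to 0.107 in HEK293T and -0.045 to 0.0083 in the K562 kit experiment, so the numbers were not taken as pairs. A replicate block left 3 genes called for NEBNext in HEK293T, 25 for K562 kit against HEK293T and 0 for Ribo-Zero Gold, RiboCop, FastSelect and riboPools, and gave 1, COX6B1, for cold-eluted riboPools.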
